A study of Mus musculus with 239 samples.

Results

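The ERBB family of growth factor receptors and its ligands were followed in single cells from both layers of the mouse mammary epithelium, before and in pregnancy. The 9 genes are the 4 receptors Egfr, Erbb2, Erbb3 and Erbb4 and the ligands Nrg1, Areg, Btc, Hbegf and Tgfa. They were chosen by name, as genes of 1 signalling family, among the 18850 genes listed, and all 9 were found. The question was which layer held ligand and which held receptor RNA in each state.

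Cells came from the mammary glands (gland pair 4) of female FVB mice, an inbred strain, aged 3 to 4 months. The 239 cells formed 4 groups. Basal-gate cells of pregnant mice were the largest, and the groups beside it held 49 luminal-gate cells of pregnant mice, 34 basal-gate cells of virgin mice and 54 luminal-gate cells of virgin mice. Pregnant mice were at day 12 per the design text and 12.5 per the protocol. No genotype other than the strain was labelled. All groups were digested for about 1 hour in medium that held insulin, hydrocortisone and 10 ng/ml EGF, itself a ligand of EGFR, so every group met that ligand before capture. Haematopoietic and endothelial cells were depleted. Viable cells with intermediate CD24 and high CD29 were taken as basal and those with high CD24 and low CD29 as luminal, from a stain that also held an antibody to the endothelial cadherin CDH5. Single cells were captured on Fluidigm C1 chips of 2 cell-size ranges, and complementary DNA from the SMARTer kit was turned into libraries with Nextera XT. No label ties a cell to a mouse, chip or day, so each group was treated as 1 sample: no test was made between groups, and every SD below is the spread over cells.

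ERBB receptors are tyrosine kinases that pair up when a ligand binds the extracellular part of one partner. EGFR binds AREG, TGFA, HBEGF and BTC; ERBB3 and ERBB4 bind NRG1; HBEGF and BTC also bind ERBB4; ERBB2 has no known ligand of its own and acts as a partner of the others, while ERBB3 has little kinase activity and signals through its partner. The ligands are made as membrane proteins and are mostly released by proteases such as ADAM17. In the mouse mammary gland AREG is known as the relay of oestrogen in duct growth, and NRG1 with ERBB4 is known for its role in alveolar development and milk gene expression.

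Areg and Btc are neighbours in the EGF-family gene cluster on chromosome 5, and their 5' regions are shown because both were highest in virgin luminal cells but at very different levels. RefSeq sequence of build GRCm38.p6 was used, from 250 bases before to 50 bases after each gene start. Capitals mark the cyclic AMP response element TGACGTCA and the TATA element TATAAA.

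Areg, chr5:91139349-91139648, plus strand: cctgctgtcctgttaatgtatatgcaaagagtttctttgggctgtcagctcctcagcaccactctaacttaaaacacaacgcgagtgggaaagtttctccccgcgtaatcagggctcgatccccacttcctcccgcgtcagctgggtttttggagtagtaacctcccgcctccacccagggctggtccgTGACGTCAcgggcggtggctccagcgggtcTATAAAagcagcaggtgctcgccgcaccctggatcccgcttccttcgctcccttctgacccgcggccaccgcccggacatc

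Btc, chr5:91402945-91403244, minus strand: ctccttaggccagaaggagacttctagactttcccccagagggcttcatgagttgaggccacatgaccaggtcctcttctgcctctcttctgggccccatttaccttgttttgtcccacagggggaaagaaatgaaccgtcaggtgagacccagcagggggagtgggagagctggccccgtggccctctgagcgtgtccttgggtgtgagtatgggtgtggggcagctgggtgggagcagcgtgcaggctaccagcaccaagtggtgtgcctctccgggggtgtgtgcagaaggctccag

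The Areg window held both elements, the cyclic AMP response element 61 bases and the TATA element 31 bases before the start, and the Btc window held neither. Searched on both strands of 32851 mouse windows of the same length, TGACGTCA was in 1.79% and TATAAA in 13.6%. The oestrogen response element GGTCANNNTGACC was in 0.0700% of windows and in neither of these. Its core GGTCA, which lies inside the longer element and which 40.5% of windows held, occurred at 1 position in each of the Areg and Btc windows. Windows were at hand for 6 of the 9 genes. Those of Egfr, Erbb2, Erbb4 and Tgfa held neither TGACGTCA nor TATAAA. A match says only that the letters are there.

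Levels are in FPKM, fragment counts normalised to transcript length and library depth, which allows comparison between genes per length. The median cell held about 8.68 M fragments as estimated from the smallest steps between values, so that 1 FPKM was about 8.68 fragments per kilobase. Group medians were 9.13, 8.80, 6.11 and 8.52 M fragments in pregnant basal, pregnant luminal, virgin basal and virgin luminal cells. Genes at 1 FPKM or more per cell had a median of 2734.5 in pregnant basal, 3653 in pregnant luminal, 1825 in virgin basal cells and 3773 in virgin luminal cells, so virgin basal cells showed the fewest genes. The gates carried their markers: Acta2, the smooth muscle actin of myoepithelial cells, reached 10 FPKM in all but 1 of the pregnant basal, 7 of 49 pregnant luminal, 27 of 34 virgin basal cells and 1 of 54 virgin luminal cells, and Krt18, a luminal keratin, in 27, 49, 11 and 54 cells in the same order. The Acta2-carrying luminal-gate cells, the Krt18-carrying basal-gate cells and 6 pregnant basal and 7 virgin basal cells with endothelial markers summing to 10 FPKM or more (against 1 pregnant luminal and 0 virgin luminal cells) touch some results below, where values are also given without them. Pericyte markers summed to 10 FPKM or more in 34 pregnant basal, 3 pregnant luminal, 3 virgin basal and 1 virgin luminal cells. In the same order, fibroblast markers did so in 4, 2, 1 and 0 cells and immune markers in 7, 5, 0 and 13. Schwann cell markers did so in 34, 32, 10 and 21 cells and adipocyte markers in 3, 0, 1 and 0. No alternative set cells aside by these other lists.

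The ligand RNA of the gland lay in different layers and was of different kinds in the 2 states. Nrg1 was basal and was highest in pregnancy, Areg was luminal and was found almost wholly in virgin mice, and Hbegf was spread over all groups. Receptor RNA was scarcer than ligand RNA: the mean FPKM of the 4 receptors summed to 10.0 in pregnant basal, 7.66 in pregnant luminal, 6.48 in virgin basal cells and 8.32 in virgin luminal cells, while the 5 ligands summed to 1245, 76.3, 456 and 202 FPKM in the same order. In the 42 pregnant luminal cells under 10 FPKM of Acta2 the receptors summed to 6.56 FPKM and the ligands to 21.3 FPKM, so the wider gap of that group rests on the other 7 cells. Egfr made up 90.8% of the summed receptor level in pregnant basal and 94.4% in virgin basal cells. In pregnant luminal cells Erbb3 (36.9%), Egfr (35.1%) and Erbb2 (24.4%) shared it. The Egfr part leans on the 7 Acta2-carrying cells, with a mean of 12.5 FPKM against 1.05 FPKM in the 42 others. Those 42 averaged 3.08 FPKM of Erbb3 and 2.18 FPKM of Erbb2, of which the highest cell held 66.6 FPKM. In virgin luminal cells Erbb2 with 51.9% and Erbb3 with 40.9% made up most of it, and Egfr 5.61%. The order of Erbb2 and Erbb3 there leans on 1 cell at 116 FPKM of Erbb2. By mean log2 level Erbb3 was the higher, at 0.99 against 0.92. Of the summed ligand level, Nrg1 made up 97.4% in pregnant basal cells and 70.6% in pregnant luminal cells, which rests there on a few cells described below, and Nrg1 with 65.5% and Hbegf with 33.1% made up that of virgin basal cells. Areg made up 78.8% and Hbegf 14.8% of it in virgin luminal cells. The Hbegf part in virgin basal cells leans on few cells. Its median there was 0.0409 FPKM, 6 of 34 cells reached 100 FPKM, and the highest held 1758 FPKM.

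**Figure D1:**
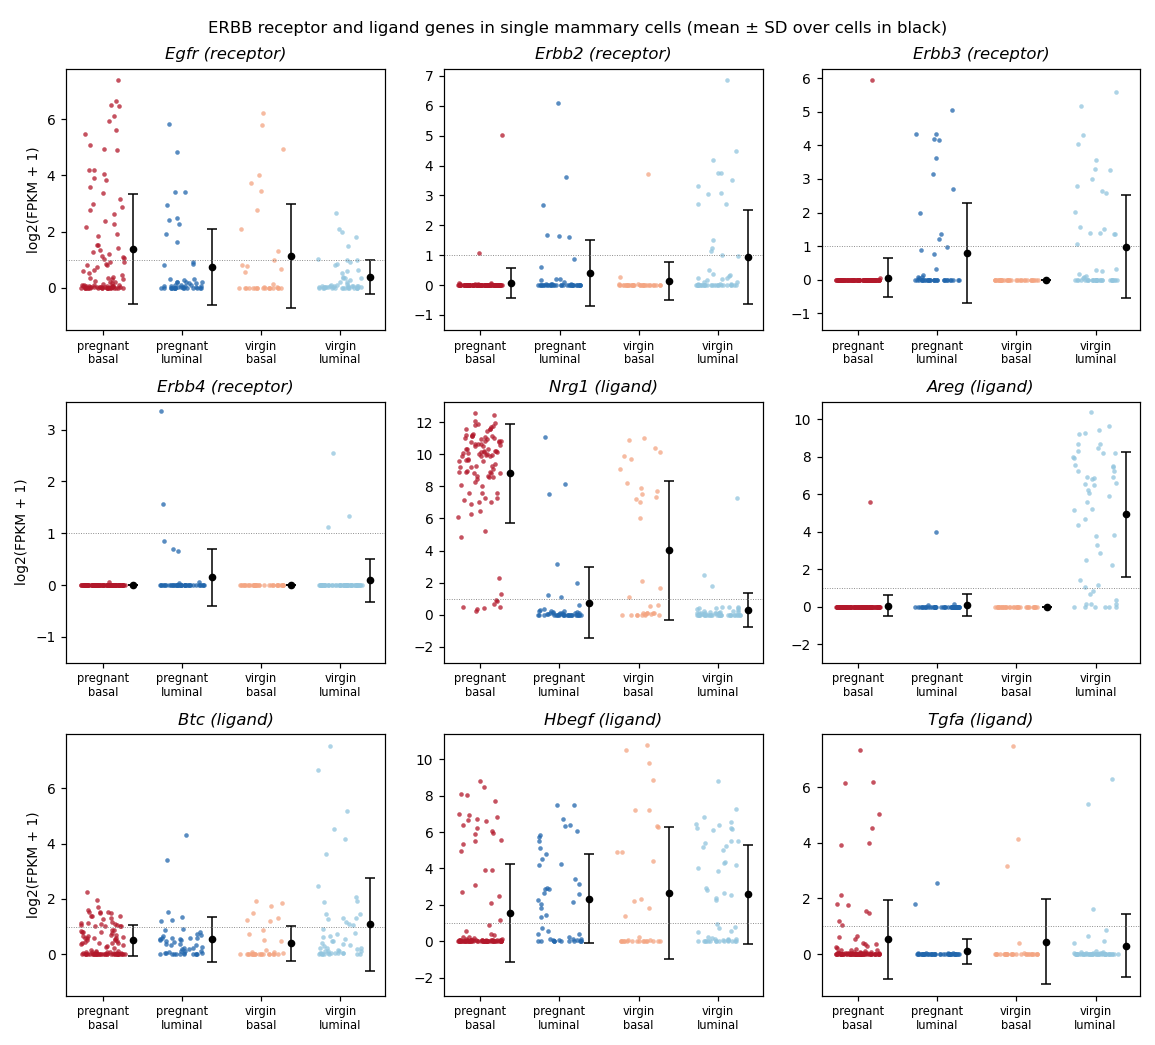
Level of each receptor and ligand gene in every cell, as log2(FPKM + 1) on the vertical axis, with 1 point per cell, groups along the horizontal axis, and the mean ± SD over cells in black; the dotted line marks 1 FPKM. Nrg1 fills the pregnant basal group (94 cells, 92.2%, at 1 FPKM or more) and splits the virgin basal group (18 of 34), and Areg is found in 1 of 49 pregnant luminal cells but in 42 of 54 virgin luminal cells.

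Nrg1, neuregulin 1, the ligand of ERBB3 and ERBB4, lies on the minus strand of chromosome 8 (GRCm38 31814551 to 32884029). In pregnant basal cells it ranged from 0.157 to 6167 FPKM with a median of 962, and its quartiles were 282 and 1783. In pregnant luminal cells the lowest value was 0, the median 0.0358 and the highest 2162 FPKM. In virgin basal cells the lowest was 0, the median 1.60 and the highest 2048 FPKM. In virgin luminal cells the lowest and the median were 0 and the highest was 156 FPKM. All pregnant basal cells held some Nrg1, most of them at high levels, whereas many virgin basal cells were near 0 and many were high, and the ranges of all groups overlapped. At 1 FPKM or more it was found in 92.2% of pregnant basal cells (95% Clopper-Pearson interval 85.1 to 96.6), 14.3% of pregnant luminal cells (5.94 to 27.2), 52.9% of virgin basal cells (35.1 to 70.2) and 5.56% of virgin luminal cells (1.16 to 15.4). These intervals, like all below, cover counting error over cells only.

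On the log2(FPKM + 1) scale Nrg1 averaged 8.81 ± 3.09 in pregnant basal cells and 4.02 ± 4.35 in virgin basal cells (SD over cells), a difference of 4.79, the fourth largest positive difference of all 18850 genes. That gap was larger than the SD of either group. Pregnant basal cells stood 8.06 above pregnant luminal cells (0.76 ± 2.21, n = 49), and virgin basal cells 3.71 above virgin luminal cells (0.31 ± 1.06, n = 54). Of the cells with Nrg1, 87 of 94 pregnant basal and 14 of 18 virgin basal cells were at 100 FPKM or more. The median over cells with Nrg1 at 1 FPKM or more was 1025 FPKM in pregnant basal and 224 FPKM in virgin basal cells. In the basal-gate cells at 10 FPKM or more of Acta2, a subset chosen after seeing the data, Nrg1 was found in 93.1% of pregnant cells (94 cells) and 55.6% of virgin cells (15 of 27).

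The Nrg1 of the pregnant luminal gate was nearly all in cells that also carried a basal marker. Of the 7 pregnant luminal cells with Nrg1, 6 had Acta2 at 10 FPKM or more, and all 7 had Krt18 at that level. The highest cell, at 2162 FPKM of Nrg1, had 5342 FPKM of Acta2 and 181 FPKM of Krt5, a basal keratin, and the next, at 281 FPKM, had 988 FPKM of Acta2. In the 42 pregnant luminal cells under 10 FPKM of Acta2, Nrg1 reached 1 FPKM in 1 cell and never passed 1.31 FPKM. Their mean was 0.0844 FPKM, against 377 FPKM in the 7 cells with Acta2, so the group's mean of 53.9 FPKM rests on those 7. Pregnant basal cells that carried Krt18 held Nrg1 as well: it was in 42 of 42 cells with Krt18 at 1 FPKM or more and in 52 of the other 60. No strand-specific counting is stated, and an antisense gene, Gm26578, shares 482 of the 10351 exonic bases of Nrg1, so reads there cannot be assigned to a strand.

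**Figure D2:**
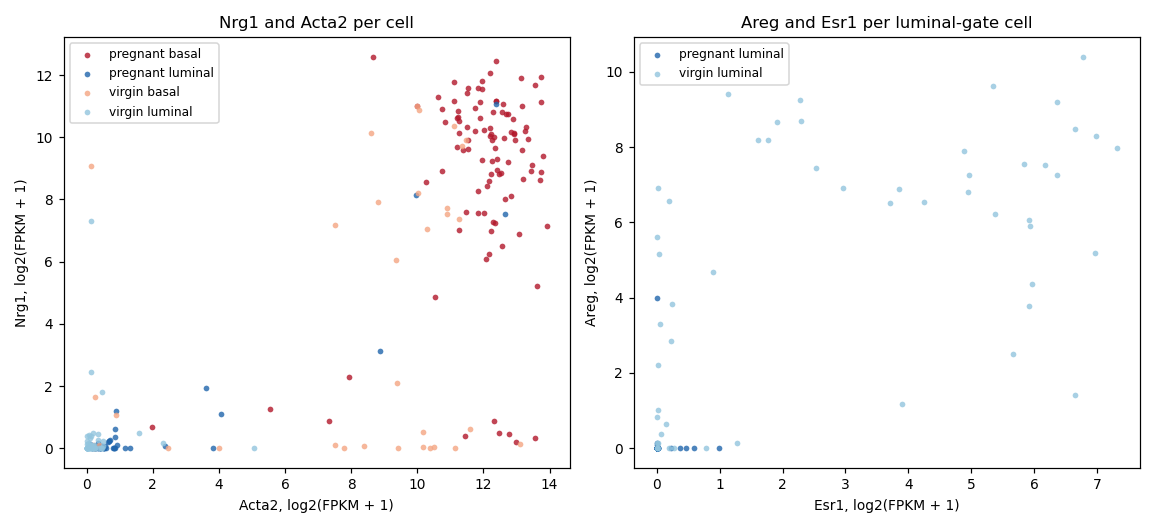
Each point is a cell, on log2(FPKM + 1) axes: Nrg1 against Acta2 in all groups on the left, Areg against Esr1 in luminal-gate cells on the right. On the left, 3 pregnant luminal cells lie among the basal cells, the highest at 2162 FPKM of Nrg1; on the right, no pregnant luminal cell reached 1 FPKM of Esr1, and 32 of the 33 virgin luminal cells with Esr1 at 1 FPKM or more also hold Areg.

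Areg, amphiregulin, a ligand of EGFR, lies on the plus strand of chromosome 5 (91139599 to 91148432). In pregnant basal cells the only cell above 0 held 47.7 FPKM. In pregnant luminal cells the lowest and the median were 0 and the highest was 14.9 FPKM. All 34 virgin basal cells were at 0. In virgin luminal cells it ranged from 0 to 1352 FPKM with a median of 62.7. Virgin luminal cells were thus the only group with Areg in more than 1 cell at 1 FPKM. The shares were 0.980% of pregnant basal cells (1 cell), 2.04% of pregnant luminal cells (1 of 49, interval 0.0517 to 10.9) and 77.8% of virgin luminal cells (42 of 54, 64.4 to 87.96), and the 0 of 34 virgin basal cells allows up to 8.82%. The pregnant luminal cell had 11.2 FPKM of Acta2 and 2597 FPKM of Krt18.

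Areg averaged 0.09 ± 0.57 on the log2 scale in pregnant luminal cells and 4.93 ± 3.35 in virgin luminal cells (SD, n = 49 and 54 cells). The difference of -4.84 was larger than either SD and the ninth lowest of all genes. Virgin basal cells stood 4.93 below virgin luminal cells, while pregnant basal and pregnant luminal cells differed by -0.03. Within the virgin luminal gate Areg followed Esr1, the oestrogen receptor: it was found in 32 of 33 cells with Esr1 at 1 FPKM or more (median 152 FPKM) and in 10 of the other 21 (median 0.773 FPKM). With all Esr1-carrying cells set aside, 49 pregnant and 21 virgin luminal cells were left and the difference of Areg was -2.02, so a smaller difference was also seen outside the Esr1-carrying cells. No pregnant luminal cell had Esr1 at 1 FPKM or more, and of 7 markers of hormone-sensing luminal cells 6 were lower by at least 1 in pregnant than in virgin luminal cells, where 5.41% of all genes were, with summed levels of 0.0085 to 40.5 FPKM in pregnant and 0.620 to 5312 FPKM in virgin luminal cells. Fewer cells of the hormone-sensing kind and less Areg per such cell cannot be told apart here.

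The genes whose levels followed Areg most closely over the 54 virgin luminal cells were Cited1 (Pearson r = 0.71), a transcriptional coregulator, F3 (0.66), the tissue factor of blood clotting, and Ptn (0.66), the growth factor pleiotrophin. Over the pregnant basal cells the nearest to Nrg1 was Ptprs (0.62), a receptor tyrosine phosphatase, and the only gene at 0.5 or more. These values describe cells of 1 group that share depth and library effects.

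Btc, betacellulin, which binds EGFR and ERBB4, lies beside Areg on the minus strand (91357261 to 91402994). It ranged from 0 to 3.72 FPKM in pregnant basal, 0 to 19.1 in pregnant luminal, 0 to 2.77 in virgin basal cells and 0 to 186 in virgin luminal cells, with medians of 0.266, 0.273, 0 and 0.304 FPKM. It was thus low in most cells of every group, and only a few luminal-gate cells were high: 10 FPKM or more was reached by 1 pregnant luminal and 6 virgin luminal cells and by no basal cell. Its log2 level averaged 0.51 ± 0.57 in pregnant basal, 0.54 ± 0.80 in pregnant luminal, 0.40 ± 0.63 in virgin basal cells and 1.09 ± 1.68 in virgin luminal cells, and no neighbouring levels differed by more than both SDs. Of the 33 virgin luminal cells with Esr1, 14 held Btc at 1 FPKM or more, against 4 of the other 21. At 10 FPKM for both genes it was 3 of 24, against 3 of the other 30. With Esr1 kept at 1 FPKM, Btc reached 10 FPKM in 5 of the 33 and 1 of the 21. Vbp1 (r = 0.56) and Il5ra (r = 0.53) were among the genes that followed Btc most closely there (n = 54 cells). The cluster's further genes Epgn and Ereg, which encode the EGFR ligands epigen and epiregulin, were rarely found: Epgn in 0, 2, 0 and 6 of the pregnant basal, pregnant luminal, virgin basal and virgin luminal cells, and Ereg in 2, 0, 2 and 0 cells in the same order.

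Hbegf, heparin-binding EGF-like growth factor, lies on chromosome 18 (36504927 to 36515805, minus strand). It had medians of 0.0396 FPKM in pregnant basal, 2.58 in pregnant luminal, 0.0409 in virgin basal cells and 2.39 in virgin luminal cells, and highest values of 441, 181, 1758 and 447 FPKM, with a lowest value of 0 in each group. It was found in 26.5% of pregnant basal (18.2 to 36.1), 55.1% of pregnant luminal (40.2 to 69.3), 44.1% of virgin basal cells (27.2 to 62.1) and 27 of 54 virgin luminal cells (36.1 to 63.9). Luminal-gate cells held it more evenly, while in basal-gate cells it was at 0 or near it in most and high in some. On the log2 scale pregnant basal cells averaged 1.54 ± 2.70 and virgin basal cells 2.63 ± 3.63 (SD over cells), a difference of -1.09 that is smaller than either SD.

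That Hbegf difference moved both ways with the cells kept. In the 7 virgin basal cells under 10 FPKM of Acta2, Hbegf had a median of 147 FPKM and was found in 5, and in the 27 others its median was 0 and it was found in 10. In cells with Cdh5 at 1 FPKM or more, Hbegf was found in 4 of 5 pregnant and 4 of 7 virgin basal cells, against 23 of 97 pregnant and 11 of 27 virgin basal cells without. All 8 endothelial markers were found in both basal groups, and their summed level ran from 0 to 1985 FPKM in pregnant basal and 0 to 6702 FPKM in virgin basal cells. With Acta2-carrying basal cells only the difference was -0.38, without the Cdh5-carrying cells it was -0.78, and among cells with at least 2000 genes it was -0.49. Without the Krt18-carrying basal cells it was wider, at -2.03, and without the Esr1-carrying cells it was -1.32. Eif2ak3, an endoplasmic reticulum stress kinase, followed Hbegf most closely over the 49 pregnant luminal cells (r = 0.52).

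Tgfa, transforming growth factor alpha, an EGFR ligand on chromosome 6 (86195223 to 86275719, plus strand), was at a median of 0 in all groups. The highest cells held 160 FPKM in pregnant basal, 4.88 in pregnant luminal, 177 in virgin basal cells and 77.95 in virgin luminal cells. It was found in 14 pregnant basal (13.7%, 7.71 to 21.96), 2 of 49 pregnant luminal (4.08%, 0.498 to 13.98), 3 of 34 virgin basal cells (8.82%, 1.86 to 23.7) and 3 of 54 virgin luminal cells (5.56%, 1.16 to 15.4), and these intervals overlap. Its mean log2 levels lay between 0.09 and 0.52, and no gap in their order exceeded both SDs.

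Egfr, the receptor of Areg, Btc, Hbegf and Tgfa products, lies on the plus strand of chromosome 11 (16752203 to 16918158) and was the only receptor with appreciable RNA in basal cells. It had medians of 0.256, 0.0694, 0.0119 and 0.0439 FPKM and highest values of 168, 56.3, 72.9 and 5.30 FPKM in pregnant basal, pregnant luminal, virgin basal and virgin luminal cells. Most cells of each group were low, with a minority of high basal cells, and no virgin luminal cell reached 10 FPKM. It was at 1 FPKM or more in 37.3% of pregnant basal (27.9 to 47.4), 20.4% of pregnant luminal (10.2 to 34.3), 26.5% of virgin basal cells (12.9 to 44.4) and 11.1% of virgin luminal cells (4.19 to 22.6). Its log2 level averaged 1.38 ± 1.97, 0.74 ± 1.36, 1.13 ± 1.84 and 0.38 ± 0.62 in the same order. Basal minus luminal differences were 0.64 in pregnant and 0.75 in virgin mice, under the 1 log2 unit that was taken as a call. In virgin mice the difference reached 1.26 among cells with at least 2000 genes and 1.04 with Acta2-carrying basal cells only.

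Part of the luminal Egfr in pregnancy again lay in cells with a basal marker. The 2 highest pregnant luminal cells, at 56.3 and 27.7 FPKM, had 6465 and 5342 FPKM of Acta2 and were among the 3 with the most Nrg1. In the 42 pregnant luminal cells under 10 FPKM of Acta2, Egfr was at 1 FPKM or more in 7 and at most 9.64 FPKM. No gene followed Egfr at r of 0.5 or more over the pregnant basal cells.

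Erbb2, on the plus strand of chromosome 11 (98412470 to 98437716), and Erbb3, on the minus strand of chromosome 10 (128567523 to 128589652), were found mainly in luminal cells. Erbb2 ranged from 0 to 31.2 FPKM in pregnant basal, 0 to 66.6 in pregnant luminal, 0 to 12.1 in virgin basal cells and 0 to 116 in virgin luminal cells, with a median of 0 in the first 3 of these groups and 0.0254 in virgin luminal cells. It was at 1 FPKM or more in 2 pregnant basal (1.96%, 0.238 to 6.90), 6 pregnant luminal (12.2%, 4.63 to 24.8), 1 virgin basal (2.94%, 0.0744 to 15.3) and 15 virgin luminal cells (27.8%, 16.5 to 41.6). Its log2 level averaged 0.06 ± 0.51 in pregnant basal, 0.40 ± 1.11 in pregnant luminal, 0.12 ± 0.64 in virgin basal cells and 0.92 ± 1.58 in virgin luminal cells.

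Erbb3 had a median of 0 in every group. The highest values were 61.3 FPKM in pregnant basal, 32.5 in pregnant luminal, 0 in virgin basal cells and 46.96 in virgin luminal cells. It was found in 1 pregnant basal (0.980%, 0.0248 to 5.34), 11 of 49 pregnant luminal (22.4%, 11.8 to 36.6) and 19 of 54 virgin luminal cells (35.2%, 22.7 to 49.4), and all 34 virgin basal cells were at 0, which allows up to 8.82%. The single pregnant basal cell held 6167 FPKM of Acta2 and 210 FPKM of Krt18, markers of both layers. The log2 level of Erbb3 averaged 0.06 ± 0.59 in pregnant basal, 0.80 ± 1.49 in pregnant luminal, 0 in virgin basal cells and 0.99 ± 1.53 in virgin luminal cells.

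The basal minus luminal differences of Erbb3 were -0.74 in pregnant and -0.99 in virgin mice, and those of Erbb2 were -0.34 and -0.80. All were short of 1 log2 unit, which mean levels under 1 could not reach. When FPKM was rescaled to the same sum in every cell the differences in virgin mice became -1.59 for Erbb3 and -1.29 for Erbb2, while the median of all genes moved to -0.78 in place of -0.52. Within the virgin luminal gate Erbb3 was found in 16 of 33 cells with Esr1 and 3 of the other 21, and in 2 of 14 cells with Elf5, the alveolar transcription factor, and 17 of the other 40. Erbb2 was found in 11 of the 33 and 4 of the 21, and in 7 of the 14 with Elf5 and 8 of the other 40. With 10 FPKM as the level for both genes of a pair, Erbb3 was in 2 of 24 cells with Esr1 and 3 of the other 30, and in 1 of 10 cells with Elf5 and 4 of the other 44, so the split of Erbb3 was seen at 1 FPKM and not at 10. Erbb2 was then in 2 of 24 cells with Esr1 and 4 of the other 30. With Esr1 kept at 1 FPKM, Erbb2 reached 10 FPKM in 5 of the 33 and 1 of the 21. With Elf5 kept at 1 FPKM, Erbb2 did so in 2 of the 14 and 4 of the other 40. Msrb2, Trim39 and Tulp4 followed Erbb3 most closely over the 54 virgin luminal cells (r = 0.59, 0.53 and 0.52), and no gene followed Erbb2 at 0.5 or more.

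Erbb4, the neuregulin receptor with a working kinase, lies on the minus strand of chromosome 1 (68032186 to 69108059) and was barely found. It reached 1 FPKM in 0 pregnant basal cells, 2 of 49 pregnant luminal cells, 0 of 34 virgin basal cells and 3 of 54 virgin luminal cells, and the highest values were 0.0353, 9.24, 0 and 4.84 FPKM. The counts of 0 allow shares of up to 2.94% in pregnant basal and 8.82% in virgin basal cells. It was the only one of the 9 genes whose mean over the 4 groups was under 1 FPKM.

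**Figure D3:**
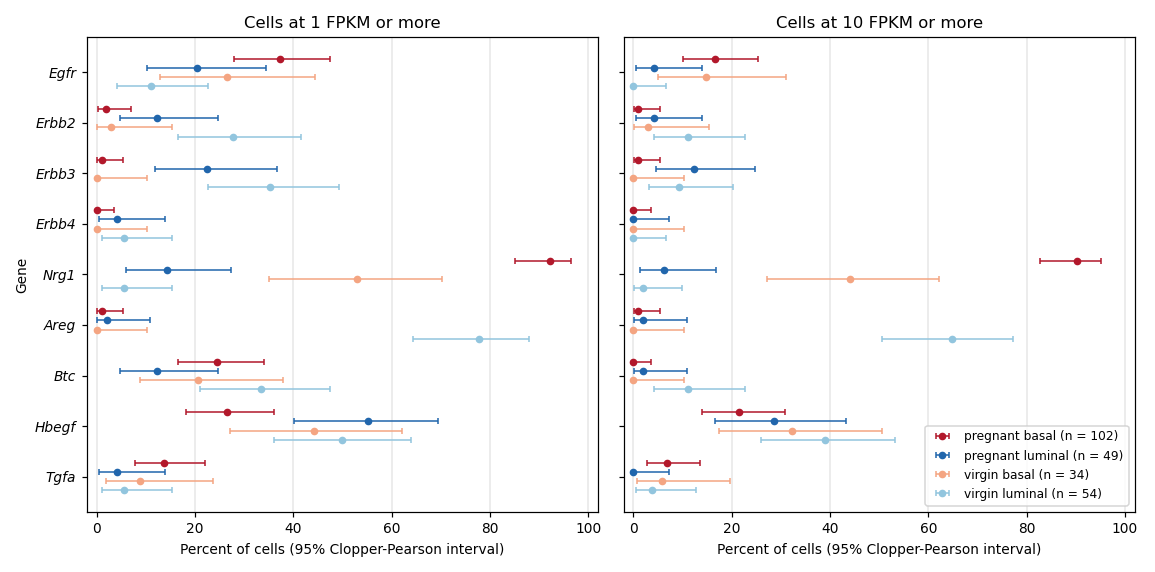
Percent of cells at 1 FPKM or more (left) and at 10 FPKM or more (right) for each gene, with a point per group and its 95% Clopper-Pearson interval. The Nrg1 intervals of the basal groups (85.1 to 96.6 in pregnant, 35.1 to 70.2 in virgin) lie apart, as do the Areg intervals of pregnant and virgin luminal cells, while those of Tgfa overlap in all groups.

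At 1 FPKM or more, Nrg1 and its receptors were rarely found in the same cell, and Egfr with any of its 4 ligands more often. Nrg1 was found together with Erbb3 or Erbb4 in 1 of the pregnant basal, 2 of 49 pregnant luminal, 0 of 34 virgin basal cells and 1 of 54 virgin luminal cells. Erbb3 or Erbb4 was found in 1, 13, 0 and 20 cells of those groups, so that in both states Nrg1 lay mainly in the basal gate and its receptors mainly in the luminal gate. Egfr was found with any of its 4 ligands in 19 pregnant basal, 7 pregnant luminal, 6 virgin basal and 5 virgin luminal cells. With 10 FPKM as the level for both, these counts were 4, 0, 0 and 0. Those of Nrg1 with Erbb3 or Erbb4 were then 1, 0, 0 and 0, so the contrast was seen only in pregnant basal cells. Of the 38 pregnant basal cells with Egfr, 37 held Nrg1, as did 57 of the 64 without Egfr. Areg was found with Egfr in 4 of the 42 virgin luminal cells that held Areg. Any of the 4 EGFR ligands was found in 51 pregnant basal, 32 pregnant luminal, 20 virgin basal and 49 virgin luminal cells. Whether the genes met in a cell more often than their single counts give was not tested.

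Any receptor was at 1 FPKM or more in 40 pregnant basal (39.2%), 24 of 49 pregnant luminal (48.98%), 10 of 34 virgin basal cells (29.4%) and 35 of 54 virgin luminal cells (64.8%). Any ligand was found in 100, 33, 30 and 49 cells of the same groups. At least 2 receptors were found together in 1, 4, 0 and 6 cells, and Erbb2 with Erbb3 in 0, 3, 0 and 5 cells. At least 2 ligands were found together in 46, 8, 10 and 31 cells, and no gene of the family in 2, 7, 3 and 1 cells. At 1 FPKM or more, receptor RNA was therefore seen in a minority of cells in all groups but virgin luminal. Ligand RNA at that level was seen in most cells of every group. With 10 FPKM as the level, any receptor was seen in 18.6%, 18.4%, 17.6% and 20.4% of cells in the same order of groups. Any ligand was then seen in 93.1%, 38.8%, 67.6% and 81.5%. Receptor RNA was thus in a minority of every group at 10 FPKM, and ligand RNA in a minority of pregnant luminal cells.

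The counts of family members past 1 log2 unit were 1 or 2 of 9 in each comparison. Erbb2, Erbb3, Erbb4 and Tgfa averaged under 1 in every group (at most 0.92, 0.99, 0.15 and 0.52), so no call was possible for them on this scale. Of the 9634 genes with a mean of at least 1 FPKM over the groups, 8 are family members, and Erbb4 is counted beside them. In virgin basal minus virgin luminal cells 1 of 9 members was higher (Nrg1) where 2.62% of all genes were, and 1 lower (Areg) where 28.9% were. In pregnant basal minus pregnant luminal cells 1 was higher (Nrg1) where 5.65% were, and 0 lower where 17.6% were. In pregnant luminal minus virgin luminal cells 0 were higher where 5.2% were, and 1 lower (Areg) where 5.41% were. In pregnant basal minus virgin basal cells 1 was higher (Nrg1) where 12.9% were, and 1 lower (Hbegf) where 0.509% were. The medians of the 9 members were -0.09, -0.03, -0.21 and 0.06 in these comparisons, beside -0.52, -0.27, -0.00 and 0.21 for all genes. The pregnant groups are shared between comparisons of layer and of state, as are the virgin groups.

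The machinery that releases the ligands was described by 13 genes of processing and shedding. In virgin basal minus virgin luminal cells 1 was higher and 5 lower (median -0.72), where 2.62% of all genes were higher and 28.9% lower (median -0.52). Timp3, an inhibitor of ADAM17, had a mean log2 level of 4.74 in pregnant basal cells, against 0.64 in pregnant luminal cells, and of 4.09 in virgin basal cells, against 0.05 in virgin luminal cells. Adam10, the protease that sheds betacellulin, ran the other way in virgin mice, with 0.81 in virgin basal cells, against 5.58 in virgin luminal cells. In pregnancy the layers came closer, with 2.40 in pregnant basal cells, against 3.35 in pregnant luminal cells for Adam10. The state differences of Adam10 were -2.23 in luminal and 1.59 in basal cells. In pregnant basal minus pregnant luminal cells 2 were higher (Timp3 and the tetraspanin Cd9, 1.35) and 1 lower (Rhbdf2, an adaptor of ADAM17 maturation, -1.10), beside 5.65% and 17.6% of all genes. In pregnant luminal minus virgin luminal cells 0 were higher and 2 lower (Adam10, and Cd9 at -1.49), beside 5.2% and 5.41% of all genes. Counts were 3 higher (Adam10, Bace1 and Cd9) and 0 lower in pregnant basal minus virgin basal cells, beside 12.9% and 0.509%.

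Of 20 negative regulators of ERBB signalling, 0 were higher and 4 lower in virgin basal minus virgin luminal cells, beside 2.62% and 28.9% of all genes. Counts were 5 higher and 2 lower in pregnant basal minus pregnant luminal cells, beside 5.65% and 17.6%. In pregnant luminal minus virgin luminal cells 1 was higher and 0 lower, beside 5.2% and 5.41%, and in pregnant basal minus virgin basal cells 5 were higher and 0 lower, beside 12.9% and 0.509%. Errfi1, a feedback inhibitor of EGFR kinase also called MIG6, was higher in pregnancy in both layers: 7.82 in pregnant basal and 5.26 in virgin basal cells, then 7.01 in pregnant and 4.59 in virgin luminal cells. Spry2 and Dusp6, feedback inhibitors of the RAS-ERK pathway, were 2.65 and 2.64 higher in pregnant basal than in virgin basal cells, and 1.64 and 2.07 higher in pregnant basal than in pregnant luminal cells. Dusp4, an ERK phosphatase, was luminal in both states, with -1.73 in pregnant basal minus pregnant luminal cells and -1.45 in virgin basal minus virgin luminal cells.

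Of 27 adaptors and signal transducers, 0 were higher and 11 lower in virgin basal minus virgin luminal cells, among them Nras (-2.10), which encodes a RAS protein, and Mapk3 (-2.06), which encodes an ERK kinase; 2.62% of all genes were higher and 28.9% lower there. In pregnant basal minus pregnant luminal cells 0 were higher and 6 lower, led by the mucin Muc1 (-3.51) and Stat5a (-2.41), the prolactin-activated transcription factor, beside 5.65% and 17.6% of all genes. State comparisons called 1 higher (Muc1, 1.88) and 1 lower (Erbb2ip, an ERBB2-binding scaffold, -1.08) in luminal cells, beside 5.2% and 5.41% of all genes. They called 2 higher and 0 lower in basal cells (Pik3r1, 1.84, and Erbb2ip, 1.25), beside 12.9% and 0.509%.

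Response genes of growth factor signalling, 13 genes, had the most calls of the 5 lists in both comparisons of states. In pregnant luminal minus virgin luminal cells 4 were higher and 2 lower, among them Myc (3.13), Phlda1 (2.98) and Egr1 (2.56) higher and Fos (-1.93) lower, where 5.2% of all genes were higher and 5.41% lower. In pregnant basal minus virgin basal cells 5 were higher and 2 lower, beside 12.9% and 0.509%, led by Ccnd1, cyclin D1, which averaged 4.10 in pregnant basal and 0.40 in virgin basal cells. Jun, Fos and Egr1, immediate early genes, were 2.08, 1.71 and 1.60 higher there. Between layers 2 were higher and 4 lower in pregnant mice, with Phlda1 at -3.54 and Dusp1 at 2.12, beside 5.65% and 17.6% of all genes. In virgin mice 1 was higher and 3 lower, with Ccnd1 at -3.39 and Fos at -2.60, beside 2.62% and 28.9%. The part of the EGF in the digestion medium in these levels was not tested.

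**Figure D4:**
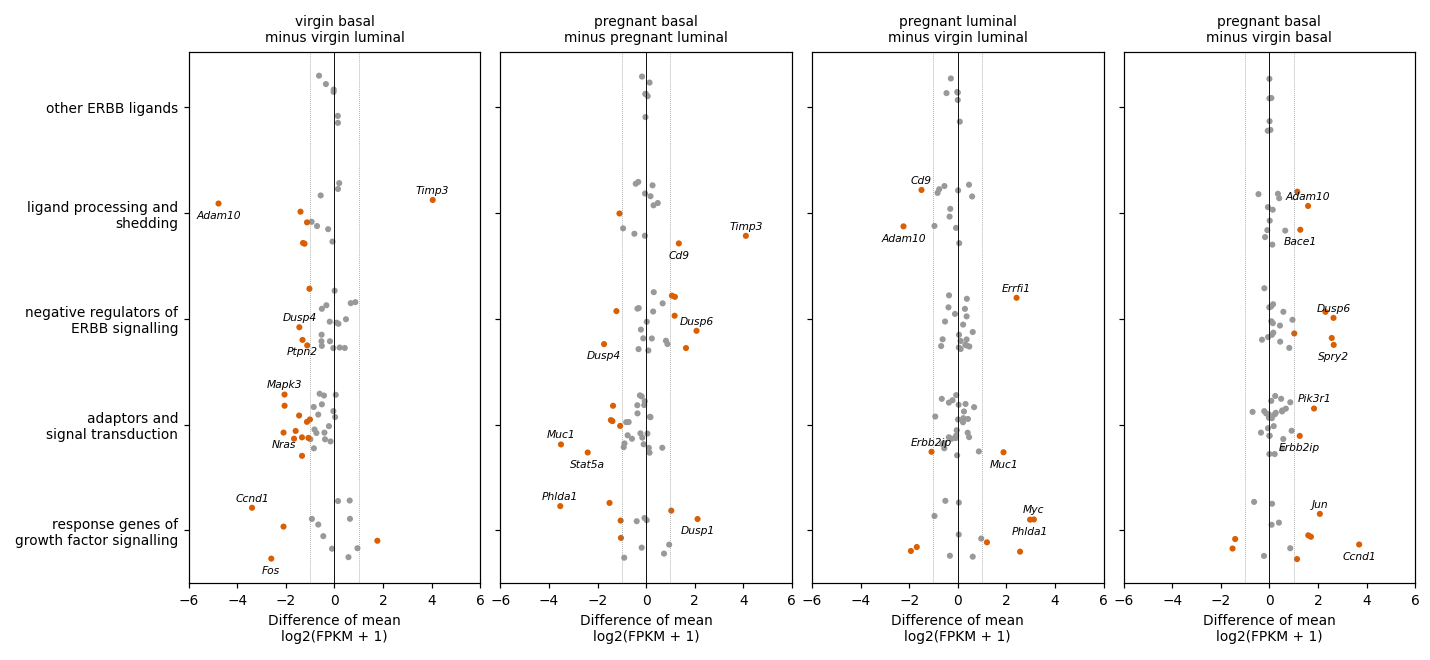
Difference of mean log2(FPKM + 1) for each gene of 5 lists (rows) in the 4 comparisons (panels), with 1 point per gene, orange at 1 or more in either direction, and the widest-moving genes named. Timp3 lies right of the line in both comparisons of layers (4.11 in pregnant, 4.05 in virgin mice). The 6 other ERBB ligands stay within 1 in all panels, which their mean levels under 1 could not pass.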

How the data were processed

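The authors deposited 1 table of FPKM values per gene and cell; no header states the unit, which was taken from the tools named and from the size of the values. Per the submitters' processing notes, Trimmomatic 0.35, TopHat2 2.0.13 and Cufflinks 2.2.1 were among the tools and mm10 (GRCm38) the build. Neither the annotation nor the counting of multiply mapped reads is stated in the sources used here.

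Values were averaged over the cells of a group as log2(FPKM + 1), and a difference of at least 1 was a call. A fold on this scale understates the change of low genes. A gene was found in a cell at 1 FPKM or more, and the intervals of shares are Clopper-Pearson at 95%; a count of 0 was given the limit of 3 cells. Genes with a mean of at least 1 FPKM over the 4 groups (9634) gave the background. Depth was estimated from the spacing of low values of 1729 single-transcript genes. In the median cell 76.4% of the low values used were whole multiples within 0.1 of a fragment. The depth was chosen for that closeness, so this share is no separate check of it. No doublet caller was run; capture sites were inspected for doublets under a microscope, per the labels' protocols. Of all columns, 0 lacked a sample.

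The members and gene lists were chosen with earlier results of these data known. Text names the members, up to 4 genes past 1 with the widest difference per list and comparison, genes at r of 0.5 or more with a member (at most 3 each, where the member was in at least 25% of cells), the gate markers, and Adam17, Cdh5, Epgn, Ereg, Gm26578 and Nrg4, which were added after values were seen. Coordinates are from GENCODE annotation of GRCm38. Alternatives were other pseudocounts, scalings and levels, cells alike in gene number, and cells without markers of another layer or type; the restriction to Acta2-carrying basal cells was added after seeing the data. Python 3.11.15, numpy 2.4.6, pandas 2.3.3 and scipy 1.17.1 were used. The difference of means was checked to return shifts added to resampled values, which checks the arithmetic and not the calls. Some genes that the naming rule selects are not reported here.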

Additional observations from a re-analysis of the deposited data

How the results depend on the processing

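The differences of Nrg1 and Areg past 1 log2 unit kept their direction and stayed past 1 under all 10 alternatives: Nrg1 between 3.24 and 6.05 (pregnant basal minus virgin basal), 5.40 and 10.502 (pregnant basal minus pregnant luminal) and 2.31 and 5.33 (virgin basal minus virgin luminal), and Areg between -7.42 and -2.02 (pregnant luminal minus virgin luminal) and between -7.60 and -2.11 (virgin basal minus virgin luminal). Hbegf in pregnant basal minus virgin basal cells ran between -2.03 and -0.06 and stayed past 1 in 5 of 10. The count of members lower there was 0 with a pseudocount of 10, with at least 2000 genes, with gene numbers between the 25th and 75th percentile, without Cdh5-carrying cells, with a difference of at least 2, and with Acta2-carrying basal cells only.

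In virgin basal minus virgin luminal cells the count lower was 4 with a pseudocount of 0.1 and with rescaling that leaves out the 10 most abundant genes (Erbb2, Erbb3, Areg and Btc), 3 with plain rescaling (Erbb2, Erbb3 and Areg) and 2 without cells carrying the other layer's marker (Erbb3 and Areg). The median of all genes there was -1.09 with a pseudocount of 0.1, so most genes were lower by at least 1. It was -0.82 without the 10 most abundant genes, -0.78 with plain rescaling and -0.59 without cells carrying the other layer's marker. The share of all genes past 1 was not counted under these settings. The count higher was 2 (Egfr and Nrg1) with at least 2000 genes and with Acta2-carrying basal cells only. In pregnant basal minus pregnant luminal cells the count higher was 2 (Egfr and Nrg1) with a pseudocount of 0.1 and with plain rescaling. The count lower there was 2 (Erbb3 and Hbegf) with a pseudocount of 0.1 and without the 10 most abundant genes, and 1 with plain rescaling (Erbb3) and without cells carrying the other layer's marker (Hbegf). The medians of all genes in these 4 settings were -0.59, -0.39, -0.27 and -0.32 in the same order. In pregnant luminal minus virgin luminal cells the count lower was 2 (Erbb2 and Areg) with a pseudocount of 0.1, where the median of all genes was -0.01. The causes were not tested. The other 69 of 88 counts stayed within 1.5 times, and 335 of 360 differences kept their side of 1. Of 144 shares at other levels or in other cell sets, 31 left the interval of the main share. At 10 FPKM 10 of 20 same-cell counts left theirs.

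Without the filter on low genes all 8 background percentages were lower, between 0.337% and 19.1%. Rescaling moved the median of all genes to -0.78 in virgin basal minus virgin luminal cells and to 0.30 in pregnant basal minus virgin basal cells. No paired analysis was possible because cells carry only a number and no test was made. With 1 sample a group, mouse, chip and day cannot be told apart from state and gate. Virgin basal cells are few (34, of which 12 have at least 2000 genes), so the 0 cells with Erbb3 or Erbb4 there allow shares of up to 8.82%. Only 6 of them have gene numbers between the 25th and 75th percentile, so that alternative rests on few virgin basal cells.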

Other observations

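Further ERBB ligands, 6 genes, had no difference of 1 log2 unit in any of the 4 comparisons. Their mean log2 levels were at most 0.64 (Epgn in virgin luminal cells), so no call was possible and the count says nothing about stability. Nrg4, a neuregulin that binds ERBB4, was at 1 FPKM or more in 1 pregnant basal, 1 of 49 pregnant luminal, 0 of 34 virgin basal cells and 6 of 54 virgin luminal cells. Epgn, rare as it was, reached 116 FPKM in its highest pregnant luminal cell and 1142 FPKM in its highest virgin luminal cell, and 5 of the 6 virgin luminal cells with Epgn also had Esr1 at 1 FPKM or more. Adam17, the protease that sheds most EGFR ligands, was found in 18.6% of pregnant basal, 28.6% of pregnant luminal, 8.82% of virgin basal cells and 42.6% of virgin luminal cells.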
